A study of Mus musculus with 24 samples.

Results

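The genes described are 10 genes known as markers of endothelial cells in general: Cdh5, Pecam1, Cldn5 and Esam, whose proteins join endothelial cells to each other; Tie1, Tek, Kdr and Flt1, which encode receptor tyrosine kinases; and Eng and Emcn, a co-receptor and a surface mucin. Members were the probe sets annotated to 1 of these symbols and to no other gene. All 10 genes were on the array, out of 17097 genes with such a probe set, and they had 14 probe sets of 28898: 3 for Flt1, 2 each for Cdh5 and Eng, and 1 for each of the others. All 10 genes passed the filter on dim signals, as did 11844 genes in all.

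Endothelial cells line blood and lymphatic vessels, and their junctions decide how tightly a vessel is sealed. VE-cadherin (Cdh5) forms the adherens junction, claudin-5 (Cldn5) and Esam sit at tight junctions, and Pecam1 holds neighbouring cells together. The VEGF receptors Kdr and Flt1 and the angiopoietin receptor Tek, with its partner Tie1, receive the signals by which a tumour's vessels sprout, mature or regress.

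Human SCC25 oral squamous carcinoma cells, an established line, were grown as orthotopic tumours in NSG mice, which lack mature lymphocytes, and mouse RNA was profiled from what the labels call the neural fraction of the tumour stroma. The hairpins were shEGR2_40.9 and shEGR2_38.9, both against EGR2, shGAL, against GAL, and the non-targeting PLKO. Mice bearing each kind of tumour received a palmitic acid (PA)-rich or a control diet, which gives 8 groups of 3 arrays, 24 in all. The series calls the 3 arrays technical replicates, so p-values measure the spread between arrays, which may not include that between animals. The hairpins were aimed at genes of the human tumour cells, and the mouse arrays do not check how far those genes were silenced.

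Values are log2 RMA expression values, in which a difference of 1 is a 2-fold difference. Array medians lay between 6.71 and 6.81. A single array differed from the rest, the control-diet replicate 3 of shEGR2_38.9, with a Gapdh 3′ minus 5′ probe set difference of 0.76, against -0.12 to 0.08 in the 23 other arrays, and calls and list counts that change without it are given below. The Schwann cell factor Sox10 had group means of 7.44 to 7.57, with no diet or EGR2 hairpin change called. It is 1 of 7 Schwann cell markers tested, of 14 listed, and other genes of that list were called, as given below. The epithelial keratin Krt14 had group means of 13.14 to 13.22, near the highest value on the arrays, 13.60. It is 1 of 11 keratinocyte markers tested, and others varied more. Krt6b had group means of 10.90 (shEGR2_38.9, control diet) to 12.50 (shGAL, PA-rich diet), and Krt4 of 11.53 (shEGR2_38.9, control diet) to 13.02 (shEGR2_40.9, PA-rich diet). Markers of other cells are given after the results they move with. Whether human transcripts bound mouse probe sets was not tested. In bulk RNA such as this, fewer endothelial cells and less endothelial RNA per cell cannot be told apart.

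RefSeq sequences (GRCm38.p6) of the 250 bases before 1 annotated start of each gene were at hand for 7 of the 10 genes, namely Cldn5, Tie1, Tek, Kdr, Flt1, Eng and Emcn. The windows of Kdr and Flt1 lay within the annotated span of the gene, and those of Tek and Emcn partly within it. They therefore do not precede the whole gene. The sequences of 3 receptor genes that moved together and of Flt1, whose pattern across groups differed, are shown, with each GGAA, or TTCC on the other strand, in capitals. GGAA is the core that ETS transcription factors bind, and ETS factors are well known regulators of endothelial genes.
Tie1, chr4:118489850-118490099, minus strand: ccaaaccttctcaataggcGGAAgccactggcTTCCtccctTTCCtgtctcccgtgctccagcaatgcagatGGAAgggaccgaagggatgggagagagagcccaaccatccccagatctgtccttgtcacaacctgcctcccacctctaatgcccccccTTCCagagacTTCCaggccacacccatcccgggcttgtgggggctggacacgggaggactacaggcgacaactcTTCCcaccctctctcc
Tek, chr4:94739039-94739288, plus strand: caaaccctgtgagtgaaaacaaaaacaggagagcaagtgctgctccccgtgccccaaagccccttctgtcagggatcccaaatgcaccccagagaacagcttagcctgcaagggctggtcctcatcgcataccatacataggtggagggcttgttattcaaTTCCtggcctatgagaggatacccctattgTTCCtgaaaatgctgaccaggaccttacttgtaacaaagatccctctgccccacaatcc
Kdr, chr5:75978456-75978705, minus strand: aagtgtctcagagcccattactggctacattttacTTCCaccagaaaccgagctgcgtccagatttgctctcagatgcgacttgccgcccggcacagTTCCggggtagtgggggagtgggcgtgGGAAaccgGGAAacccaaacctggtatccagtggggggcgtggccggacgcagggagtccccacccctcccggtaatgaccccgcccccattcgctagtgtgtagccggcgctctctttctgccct
Flt1, chr5:147726012-147726261, minus strand: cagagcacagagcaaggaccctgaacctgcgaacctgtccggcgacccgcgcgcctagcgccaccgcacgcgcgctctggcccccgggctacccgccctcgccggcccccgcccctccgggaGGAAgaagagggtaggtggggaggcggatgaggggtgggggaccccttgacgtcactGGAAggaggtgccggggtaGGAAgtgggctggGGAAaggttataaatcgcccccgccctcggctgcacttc

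Counted on both strands and with overlaps allowed, GGAA occurred 7 times in the Tie1 window and 4 times each in those of Kdr, Flt1 and Emcn. It occurred 3 times in the Eng window, 2 times in that of Tek and 0 times in that of Cldn5. A match was found in 93.4% of all 32851 windows of this length, so its presence sets no gene apart, and 33.4% had 4 or more. AGGAAG, which contains GGAA and overlaps its matches, was present in 4 of the 7 windows (Tie1, Flt1, Eng and Emcn), against 29.5% of all windows. TATAAA was found in the Flt1 window alone among the 7, against 12.4% of all windows, and GGGCGG in those of Flt1, Kdr and Cldn5, against 32.7%. Whether these motifs bear on the expression of the genes was not tested.

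On the control diet, 9 of the 10 genes were higher in stroma of tumours with the EGR2 hairpins than in PLKO stroma (10.8% of all genes were called higher). On the PA-rich diet no difference from PLKO was called, and the diet lowered these 9 genes with both EGR2 hairpins, by 1.40-fold (Eng, shEGR2_40.9) to 3.79-fold (Tie1, shEGR2_38.9), where 5.22% of all genes were called lower with shEGR2_40.9 and 8.3% with shEGR2_38.9. With shGAL or PLKO no diet change was called for any of the 10. Flt1 missed the threshold for the diet with both EGR2 hairpins, by a fit in which 1 of its 3 probe sets stands for the gene, and was higher with shGAL than with PLKO on both diets.

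**Figure D1:**
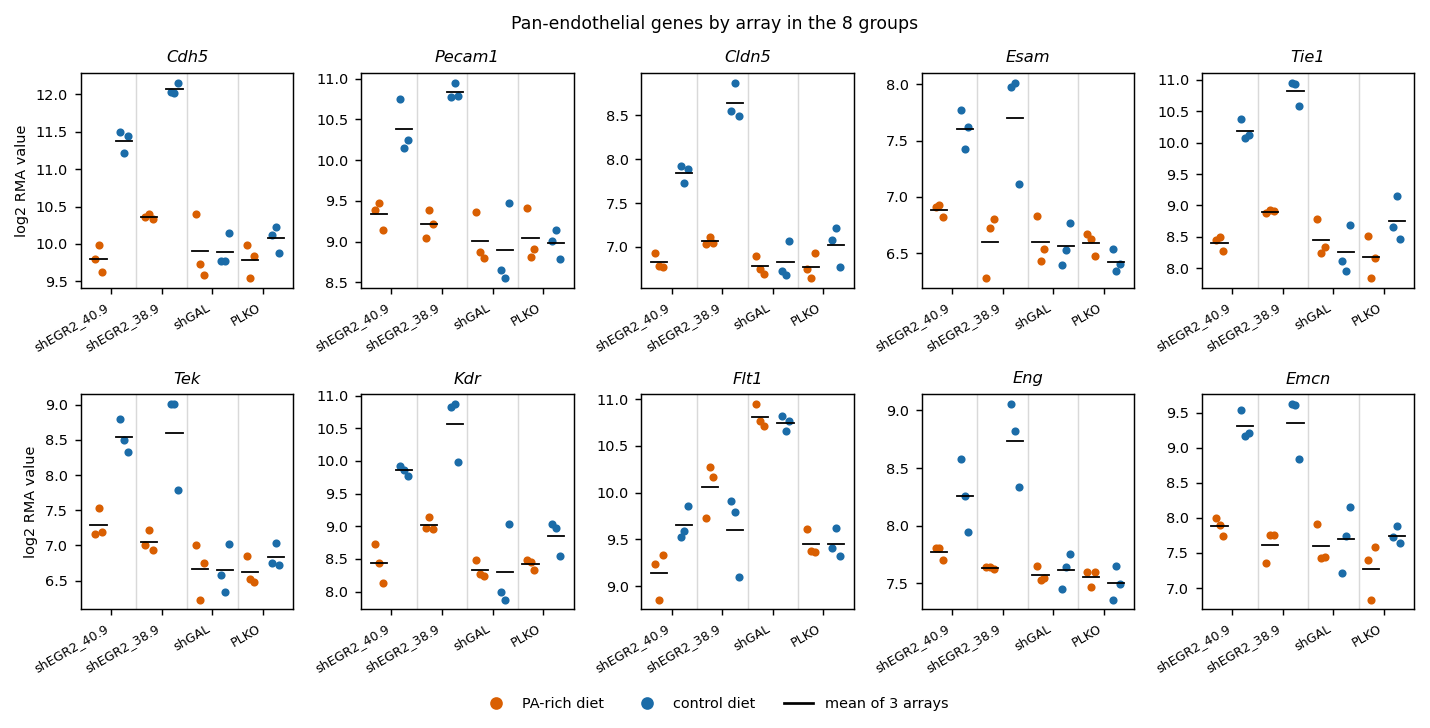
Log2 RMA value of each of the 10 genes on each array (y axes), by hairpin and diet (x axes), with the PA-rich diet left of the control diet and a line at the mean of 3 arrays. In every panel but that of Flt1, the control-diet arrays of both EGR2 hairpins lie above all 18 other arrays, as in 2.51% of all genes.

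Among the junction genes, Cdh5 was at 9.79, 9.99 and 9.62 with shEGR2_40.9 on the PA-rich diet, against 11.49, 11.21 and 11.44 on the control diet. With shEGR2_38.9 it was at 10.35, 10.39 and 10.34 on the PA-rich diet, against 12.03, 12.02 and 12.15 on the control diet. The diets did not overlap with either hairpin, and the control-diet arrays of both lay above all shGAL arrays (9.58 to 10.39) and PLKO arrays (9.54 to 10.22). The PA-rich arrays of shEGR2_38.9 also lay above every PLKO array. The diet effect on Cdh5 was -1.58 ± 0.16 (log2, SE; adjusted p = 7.77e-07) with shEGR2_40.9 and -1.71 ± 0.16 (adjusted p = 5.47e-08) with shEGR2_38.9. Its other probe set, 1433956_PM_at, fell by 1.51 and 1.90 on the log2 scale.

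Pecam1, the adhesion molecule CD31, was at 9.39, 9.47 and 9.14 with shEGR2_40.9 on the PA-rich diet, against 10.75, 10.15 and 10.25 on the control diet. With shEGR2_38.9 the values were 9.04, 9.39 and 9.22 on the PA-rich diet, against 10.77, 10.95 and 10.78 on the control diet. The diets again did not overlap, and the PA-rich values lay within the range of the shGAL arrays (8.55 to 9.47), beside 8.78 to 9.42 with PLKO. Pecam1 fell by 1.05 ± 0.21 (adjusted p = 0.00160) and by 1.62 ± 0.21 (adjusted p = 3.99e-06) on the log2 scale with shEGR2_40.9 and shEGR2_38.9.

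Cldn5, the claudin of tight endothelial barriers, was at 6.93, 6.78 and 6.77 with shEGR2_40.9 on the PA-rich diet, against 7.92, 7.72 and 7.89 on the control diet. With shEGR2_38.9 it was at 7.03, 7.12 and 7.04 on the PA-rich diet, against 8.55, 8.87 and 8.49 on the control diet. The 3 control-diet arrays of shEGR2_38.9 were above the 3 of shEGR2_40.9, and all 6 were above the shGAL (6.68 to 7.06) and PLKO (6.64 to 7.21) arrays. The diet effect was -1.02 ± 0.12 (adjusted p = 4.17e-06) with shEGR2_40.9 and -1.57 ± 0.12 (adjusted p = 4.77e-09) with shEGR2_38.9.

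Esam, an immunoglobulin-like adhesion molecule of endothelial tight junctions, was at 6.91, 6.93 and 6.82 with shEGR2_40.9 on the PA-rich diet, against 7.77, 7.42 and 7.62 on the control diet. Its values with shEGR2_38.9 were 6.28, 6.73 and 6.81 on the PA-rich diet, against 7.98, 8.01 and 7.11 on the control diet. The lowest of these control-diet values, 7.11, is that of the array that stood apart, and it still lay above the PA-rich arrays and above those with shGAL (6.40 to 6.83) and PLKO (6.34 to 6.67). Esam fell by 0.72 ± 0.18 (adjusted p = 0.0108) with shEGR2_40.9 and by 1.10 ± 0.18 (adjusted p = 7.04e-05) with shEGR2_38.9, or by 1.39 without that array. The call with shEGR2_40.9 was lost without its control-diet replicate 1 (-0.63, adjusted p = 0.0597).

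Of the receptors, Tie1, the partner of Tek that has no firmly established ligand of its own, was at 8.45, 8.50 and 8.27 with shEGR2_40.9 on the PA-rich diet, against 10.37, 10.08 and 10.12 on the control diet. With shEGR2_38.9 the values were 8.87, 8.92 and 8.91 on the PA-rich diet, against 10.95, 10.94 and 10.59 on the control diet. Every control-diet array with an EGR2 hairpin was above every array with shGAL (7.95 to 8.79) and PLKO (7.84 to 9.14). The diet effect on Tie1 was the largest among the 10 genes with both hairpins, at -1.78 ± 0.19 (adjusted p = 1.46e-06) with shEGR2_40.9 and -1.92 ± 0.19 (adjusted p = 1.04e-07) with shEGR2_38.9.

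Tek, the angiopoietin receptor Tie2, was at 7.17, 7.53 and 7.19 with shEGR2_40.9 on the PA-rich diet, against 8.79, 8.50 and 8.33 on the control diet. With shEGR2_38.9 it was at 7.01, 7.21 and 6.93 on the PA-rich diet, against 9.01, 9.01 and 7.79 on the control diet. The array that stood apart was again the lowest of its group, and the diets did not overlap. Tek fell by 1.24 ± 0.24 (adjusted p = 0.00168) with shEGR2_40.9 and by 1.55 ± 0.24 (adjusted p = 6.11e-05) with shEGR2_38.9, or by 1.95 without that array.

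Kdr, the main signalling receptor for VEGF-A, was at 8.72, 8.44 and 8.14 with shEGR2_40.9 on the PA-rich diet, against 9.93, 9.87 and 9.77 on the control diet. Its shEGR2_38.9 values were 8.97, 9.14 and 8.96 on the PA-rich diet, against 10.83, 10.87 and 9.99 on the control diet. All 6 control-diet arrays were above the shGAL (7.88 to 9.04) and PLKO (8.32 to 9.04) arrays. The diet effect was -1.42 ± 0.23 (adjusted p = 0.000229) with shEGR2_40.9 and -1.54 ± 0.23 (adjusted p = 3.50e-05) with shEGR2_38.9.

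Eng, endoglin, a co-receptor for ligands of the TGF-β family, was at 7.80, 7.81 and 7.71 with shEGR2_40.9 on the PA-rich diet, against 8.57, 8.26 and 7.95 on the control diet. In shEGR2_38.9 stroma it was at 7.65, 7.64 and 7.63 on the PA-rich diet, against 9.05, 8.83 and 8.34 on the control diet. The diets did not overlap with either hairpin, but with shEGR2_40.9 they came close. Eng fell by 0.49 ± 0.14 (adjusted p = 0.0314) with shEGR2_40.9 and by 1.10 ± 0.14 (adjusted p = 4.27e-06) with shEGR2_38.9. The call with shEGR2_40.9 was lost without each of 5 of its 6 arrays in turn (adjusted p of 0.0730 to 0.189), while the other probe set, 1432176_PM_a_at, fell by 0.64 (adjusted p = 0.00552 over all probe sets).

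Emcn, endomucin, a mucin of capillary and venous endothelium, was at 8.00, 7.90 and 7.74 with shEGR2_40.9 on the PA-rich diet, against 9.54, 9.16 and 9.22 on the control diet. With shEGR2_38.9 the values were 7.35, 7.75 and 7.76 on the PA-rich diet, against 9.62, 9.61 and 8.84 on the control diet. No PA-rich array reached a control-diet array with either hairpin. Emcn fell by 1.42 ± 0.22 (adjusted p = 0.000139) with shEGR2_40.9 and by 1.74 ± 0.22 (adjusted p = 4.18e-06) with shEGR2_38.9.

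Flt1, a VEGF receptor that also has a soluble form known to trap VEGF, had a different pattern across the groups. It was at 9.24, 8.86 and 9.33 with shEGR2_40.9 on the PA-rich diet, against 9.52, 9.59 and 9.86 on the control diet. With shEGR2_38.9 it was at 9.72, 10.27 and 10.17 on the PA-rich diet, against 9.91, 9.79 and 9.10 on the control diet. The diets did not overlap with shEGR2_40.9 but did with shEGR2_38.9, and the differences, -0.51 ± 0.17 (adjusted p = 0.0623) and 0.45 ± 0.17 (adjusted p = 0.0598), missed the threshold in opposite directions. The first passed it when control-diet replicate 1 or 3 or PA-rich replicate 1 of shEGR2_38.9 was left out (adjusted p of 0.0138 to 0.0474), with array weights (-0.58, adjusted p = 0.00685), with the mean of its probe sets (-0.56, adjusted p = 0.00292) and with only the groups compared (adjusted p = 0.0424). The second passed it without control-diet replicate 1 or 2 or PA-rich replicate 1 of that hairpin (adjusted p of 0.0157 to 0.0387). Whether Flt1 fell with shEGR2_40.9 thus depends on the setting.

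With shGAL, Flt1 was at 10.95, 10.77 and 10.71 on the PA-rich diet, against 9.61, 9.37 and 9.36 with PLKO. On the control diet it was at 10.82, 10.66 and 10.76 with shGAL, against 9.41, 9.62 and 9.32 with PLKO. Every shGAL array was above every other array (17% of all genes lay above PLKO without overlap on the PA-rich and 14.7% on the control diet), and Flt1 was higher with shGAL by 1.36 ± 0.17 (adjusted p = 8.69e-06) on the PA-rich and by 1.29 ± 0.17 (adjusted p = 1.88e-05) on the control diet.

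The 3 Flt1 probe sets did not behave alike, which limits what can be said of the gene. Probe set 1451756_PM_at, used above, and 1454037_PM_a_at had diet effects of 0.45 and 0.15 with shEGR2_38.9, whereas 1419300_PM_at fell by 0.93 (adjusted p = 1.80e-04 over all probe sets). With shEGR2_40.9, 1454037_PM_a_at fell by 0.68 (adjusted p = 4.86e-04) and 1419300_PM_at had an effect of -0.49 (adjusted p = 0.0619). For 1419300_PM_at the shEGR2_38.9 values were 7.02, 7.26 and 7.14 on the PA-rich diet, against 8.13, 8.47 and 7.60 on the control diet, with no overlap. On the control diet, the EGR2 hairpins exceeded PLKO by 0.18 and 0.18 in 1451756_PM_at and 1454037_PM_a_at, and by 1.10 (adjusted p = 3.55e-06) in 1419300_PM_at. With the mean of the probe sets that difference was 0.48 (adjusted p = 0.00122), which passed the threshold. All 3 probe sets were higher with shGAL than with PLKO on both diets, by 0.81 to 1.36. Which transcripts each probe set detects was not tested.

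**Figure D2:**
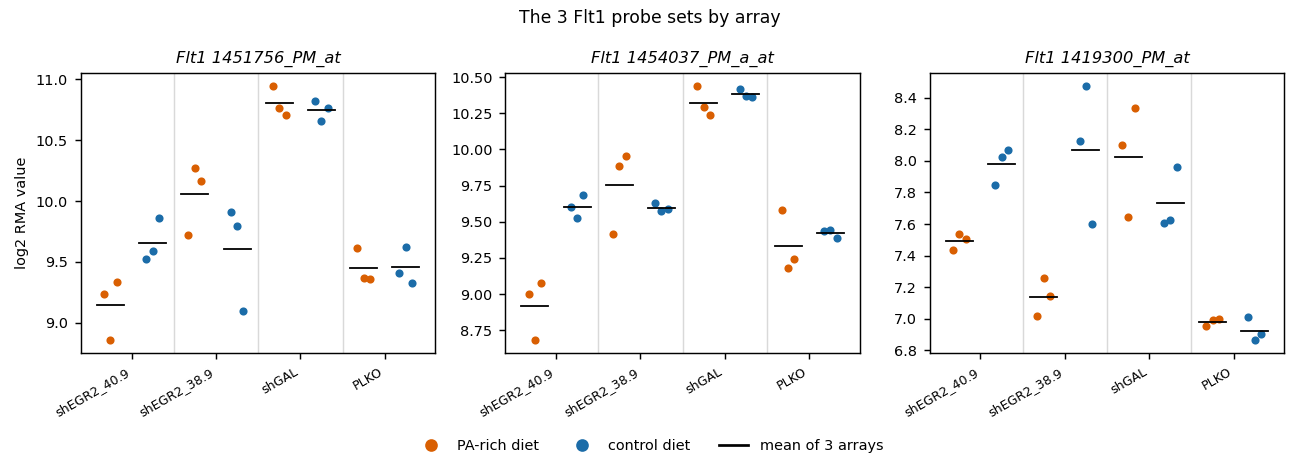
Log2 RMA value of the 3 Flt1 probe sets on each array (y axes), by hairpin and diet (x axes), with a line at the mean of 3 arrays. In 1419300_PM_at both EGR2 hairpins have control-diet means near 8 (7.98 and 8.07), above their PA-rich means of 7.49 and 7.14, while in the other probe sets the shGAL arrays are the highest.

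Counted over the genes, the diet lowered 9 of the 10 with shEGR2_40.9, where 5.22% of all genes were called lower, and 9 of the 10 with shEGR2_38.9, where 8.3% were. Every PA-rich array was below every control-diet array in 10 of the 10 genes with shEGR2_40.9 (13.8% of all genes) and in 9 with shEGR2_38.9 (11%). Median diet effects of the 10 genes were -1.14 and -1.56 with shEGR2_40.9 and shEGR2_38.9, beside 0.03 and 0.07 over all genes. With shGAL, limma called 0 of the 10 (1.94% of all genes were called in either direction), 0 had an unadjusted p under 0.05, and the median effect was 0.02. With PLKO it also called 0 (1.18% of all genes), but 3, Cldn5, Tie1 and Emcn, had an unadjusted p under 0.05, all lower on the PA-rich diet. The percentages are of adjusted calls, and the share of all genes with an unadjusted p under 0.05 is not given here or below.

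**Figure D3:**
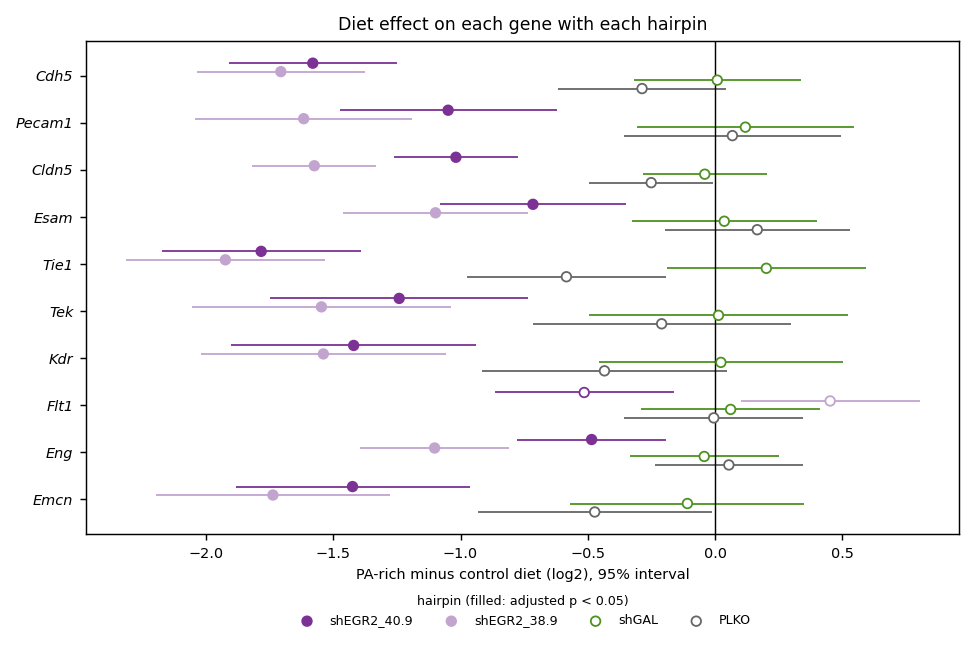
Diet effect (PA-rich minus control, log2, x axis) on each gene (rows) with each of the 4 hairpins, as the limma estimate with its 95% interval. With the EGR2 hairpins, all genes but Flt1 lie between -0.49 and -1.92, while the shGAL points lie between -0.11 and 0.20.

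Among those PLKO values, Tie1 was at 8.52, 7.84 and 8.16 on the PA-rich diet, against 8.66, 9.14 and 8.46 on the control diet, and its effect of -0.58 ± 0.19 had an adjusted p of 0.171. The diets overlapped, since the highest PA-rich array was above the lowest control-diet array. In Kdr and Emcn every PA-rich PLKO array was below every control-diet one, which was so for 10.3% of all genes.

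The diet effects differed between hairpins by a direct test. The mean effect of the EGR2 hairpins was lower than that of PLKO for 9 of the 10 genes (4.57% of all genes were called lower), with differences of -0.85 ± 0.17 (Eng) to -1.40 ± 0.25 (Pecam1) on the log2 scale. It was lower than that of shGAL for the same 9 genes (6.68% of all genes), with differences of -0.75 ± 0.17 (Eng) to -2.05 ± 0.23 (Tie1). Between shGAL and PLKO, 0 of 10 differed (1.33% of all genes in either direction) and 1, Tie1, had an unadjusted p under 0.05 (0.79 ± 0.27, adjusted p = 0.160). Taken alone, shEGR2_38.9 differed from PLKO in 9 genes (5.52% called lower) and shEGR2_40.9 in 5, Cdh5, Pecam1, Cldn5, Esam and Tie1 (2.36% called lower). Without PLKO replicate 1 on the PA-rich diet, the calls for the EGR2 mean against PLKO fell to 7, losing Tek (adjusted p = 0.0515) and Kdr (adjusted p = 0.0568), and Kdr was also lost without PLKO control-diet replicate 3 (adjusted p = 0.0782).

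On the control diet, the mean of both EGR2 hairpins exceeded PLKO for 9 of the 10 genes, where 10.8% of all genes were called higher. The differences ran from 1.00 ± 0.12 (Eng, adjusted p = 2.41e-06) to 1.75 ± 0.16 (Tie1, adjusted p = 5.96e-08), with Tek at 1.74 ± 0.21, Cdh5 at 1.65 ± 0.14 and Pecam1 at 1.63 ± 0.18. Cldn5, Esam, Kdr and Emcn were higher by 1.22, 1.23, 1.35 and 1.59, and Flt1 by 0.18 ± 0.15 (adjusted p = 0.398), which was not called, though the mean of its probe sets was (0.48, adjusted p = 0.00122). The same 9 genes were called with each hairpin alone, with a median over the 10 genes of 1.24 for shEGR2_40.9 (7.19% of all genes called higher) and 1.66 for shEGR2_38.9 (11.2%). In these 9 genes each of the 6 arrays with an EGR2 hairpin was above all 18 arrays of the other groups, as was so for 2.51% of all genes.

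On the PA-rich diet, the same contrast called 0 of the 10 genes, where 1.11% of all genes were called in either direction. Its 10 values were all above 0, with a median of 0.26, beside -0.005 over all genes, and 4 (Cdh5, Tie1, Tek and Emcn) had an unadjusted p under 0.05. The shares of all genes that were above 0 or under that unadjusted p are not given. Tek was at 7.17, 7.53 and 7.19 with shEGR2_40.9 and 7.01, 7.21 and 6.93 with shEGR2_38.9, against 6.86, 6.53 and 6.48 with PLKO, and its difference of 0.55 ± 0.21 had an adjusted p of 0.267. Every EGR2 hairpin array was above every PLKO array in 2 of the 10 genes, Tek and Eng, as in 4.73% of all genes. Tie1 and Tek were called when only the groups compared were fitted (adjusted p of 0.0424 and 0.0173). The intervals still allow a difference: for Tie1 the 95% interval ran from 0.14 to 0.82.

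**Figure D4:**
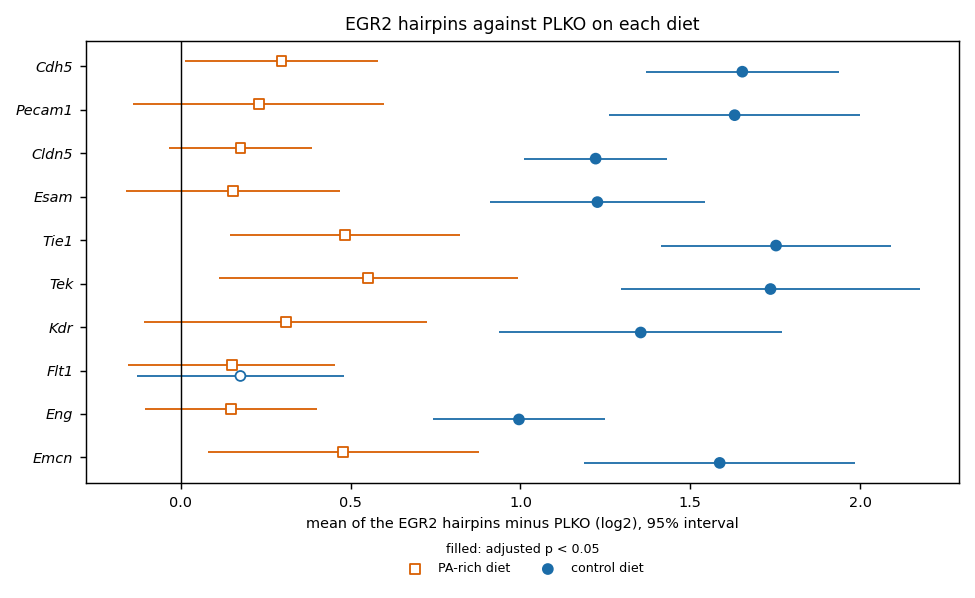
Mean of the EGR2 hairpins minus PLKO (log2, x axis) for each gene (rows) on the PA-rich diet (squares) and the control diet (circles), as the limma estimate with its 95% interval. The PA-rich values lie between 0.15 and 0.55 and none is called, while on the control diet all genes but Flt1 lie between 1.00 and 1.75.

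Set against shGAL instead, the EGR2 hairpins were higher on the control diet for the 9 genes other than Flt1 (13.2% of all genes were called higher), by 0.88 ± 0.12 (Eng) to 2.26 ± 0.16 (Tie1), and lower for Flt1, at -1.12 ± 0.15 (16% called lower). Flt1 probe set 1419300_PM_at went the other way there, with means of 7.98 (shEGR2_40.9) and 8.07 (shEGR2_38.9), against 7.73 with shGAL, though arrays overlapped. In 1454037_PM_a_at these means were 9.60 and 9.60, against 10.39, which is also lower. On the PA-rich diet, Flt1 alone was called, at -1.21 ± 0.15 (8.16% of all genes called lower), and Tek, at 0.51, passed the threshold in the fit without the array that stood apart (adjusted p = 0.0208). Between shGAL and PLKO, Flt1 alone was called on either diet (7.15% of all genes were called higher on the control and 7.6% on the PA-rich diet). Kdr and Tie1 differed between shGAL and PLKO on the control diet by -0.55 ± 0.23 and -0.50 ± 0.19, which missed the threshold (adjusted p of 0.108 and 0.0695). Without shGAL control-diet replicate 3 both passed it (-0.92, adjusted p = 0.00273, and -0.72, adjusted p = 0.0115). These comparisons share their shGAL, PLKO or EGR2 hairpin arrays and are not independent of each other.

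The EGR2 hairpins also differed from each other. On the control diet, 5 of the 10 genes were higher with shEGR2_38.9 than with shEGR2_40.9 (4.32% of all genes called higher): Cldn5 by 0.79 ± 0.12, Kdr by 0.71 ± 0.23, Cdh5 by 0.69 ± 0.16, Tie1 by 0.64 ± 0.19 and Eng by 0.48 ± 0.14. Cdh5 and Cldn5 stayed called in every fit that left out 1 array. Kdr had an adjusted p of only 0.0491 and was lost in many alternatives. Tie1 was lost with scan batch as a block (0.57, adjusted p = 0.0900) and without each of 4 control-diet arrays of these hairpins in turn (adjusted p of 0.0725 to 0.111). Eng was lost with the mean of its probe sets (0.25, adjusted p = 0.224), with only the groups compared (adjusted p = 0.309) and without each of 4 such arrays (adjusted p of 0.0702 to 0.180). On the PA-rich diet, Cdh5 (0.56 ± 0.16, adjusted p = 0.0411) and Flt1 (0.91 ± 0.17, adjusted p = 0.00178) were higher with shEGR2_38.9 (2.79% of all genes called higher). Flt1 probe set 1419300_PM_at went the other way without overlap, with PA-rich means of 7.14 with shEGR2_38.9 and 7.49 with shEGR2_40.9. In 1454037_PM_a_at these means were 9.75 and 8.92, so shEGR2_38.9 was the higher. The call for Cdh5 was lost with scan batch as a block (0.54, adjusted p = 0.156), with no filter on dim signals (adjusted p = 0.0561), with the mean of its probe sets (0.44, adjusted p = 0.0982) and without each of 5 of the 6 arrays compared (adjusted p of 0.0991 to 0.212). The diet effect differed between these hairpins for Flt1 alone, by 0.97 ± 0.24 (adjusted p = 0.0173, with 3.77% of all genes called higher), and that call was lost without each of 3 arrays in turn (adjusted p of 0.0581 to 0.0620). It was also lost with the mean of its probe sets (0.45, adjusted p = 0.105) and with only the groups compared (adjusted p = 0.0832). Without the control-diet array of shEGR2_38.9 that stood apart, 4 genes were called in this comparison, Flt1 and, with the opposite sign, Cldn5, Esam and Eng.

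Scan batch in the labels went with the replicate number and held both diets of a hairpin, so the diet can be compared within each batch. Each such comparison sets 1 array against 1, and the share of all genes that were lower in it is not given here. With shEGR2_40.9, the PA-rich array was the lower in all 10 genes within each of its 3 batches, with medians of -1.28, -0.96 and -1.13. With shEGR2_38.9, 10, 9 and 9 genes were lower, with medians of -1.71, -1.68 and -1.06, the last in the batch of the array that stood apart. With shGAL the count was 0, 5 and 10 (medians of 0.46, 0.02 and -0.36), so the direction changed between its batches. With PLKO it was 5, 9 and 5 (medians of -0.01, -0.51 and -0.00). There Cdh5, Tie1, Kdr and Emcn were lower on the PA-rich diet in all 3 batches, Esam was higher in all 3, and the other genes varied. Each hairpin shared 1 batch with PLKO: on the control diet Cdh5 was higher there by 1.38 with shEGR2_40.9, by 1.80 with shEGR2_38.9 and by 0.27 with shGAL, and on the PA-rich diet the differences were -0.19, 0.86 and -0.25, each from 1 array a side.

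Leaving out the array that stood apart left 9 of 10 genes called lower for the PA-rich diet with shEGR2_38.9 and 9 of 10 higher with the EGR2 hairpins than with PLKO on the control diet. Without it the diet effects with shEGR2_38.9 were -1.66 for Cdh5, -1.64 for Pecam1, -1.65 for Cldn5, -2.04 for Tie1, -1.83 for Kdr, -1.30 for Eng and -1.99 for Emcn. For Flt1 the effect was 0.20 (adjusted p = 0.408).

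Across the 8 group means, the 36 pairs among the genes other than Flt1 had Pearson correlations of 0.877 to 0.994, and the 9 pairs with Flt1 had -0.376 to -0.201. These 8 points share arrays and normalization, and the values are descriptions. The 10 genes outside the set whose group means were most like the mean profile of the 10 genes were Spsb1, Anxa6, Fam174b, Lmo2, Podxl, Rasip1, Pip5k1c, Fli1, Zfand2a and Nhsl2 (r of 0.990 to 0.995). Spsb1, a SOCS-box protein, had group means of 9.95 and 10.05 on the PA-rich diet with shEGR2_40.9 and shEGR2_38.9, against 11.04 and 11.33 on the control diet. Lmo2, a transcriptional adaptor of blood and endothelial development, had diet effects of -1.78 and -2.05 with shEGR2_40.9 and shEGR2_38.9, and Rasip1, a regulator of vessel lumens, of -1.12 and -1.58.

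Other genes of the endothelium were counted from lists. The lists share genes, such as Prox1, Flt4, Lyve1 and Nr2f2, so their counts are not independent. Of 19 further endothelial genes tested, 15 fell with the diet with shEGR2_40.9 and 15 with shEGR2_38.9, 0 rose with either, and 16 were higher with the EGR2 hairpins than with PLKO on the control diet. Median changes were -0.87, -1.26 and 1.29. Calcrl, the receptor subunit for CGRP and adrenomedullin, fell by 2.52 and 2.30, while Cd34, a sialomucin of vessels and progenitors, had diet effects of -1.64 and -1.78. Adgrf5, an adhesion receptor of endothelium, fell by 1.58 and 1.47, while Ramp2, the partner of Calcrl, was at -0.06 and 0.11 and was not called. In PLKO stroma no gene of this list was called for the diet, with effects from -0.75 (Calcrl, adjusted p = 0.0996) to 0.23 (Aqp1).

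Of 18 endothelial transcription factors, 10 fell and 1 (Foxc1) rose with shEGR2_40.9, 14 fell with shEGR2_38.9, and 12 were higher on the control diet with the EGR2 hairpins than with PLKO. The list holds 4 ETS factors, named here for their family after their values were seen. Erg (-1.07 and -1.16), Ets1 (-0.73 and -0.79) and Fli1 (-0.68 and -0.74) fell with both hairpins, and Ets2 was at -0.10 and 0.06, not called. Ets1 rose with the diet with shGAL, by 0.65 (adjusted p = 0.0117). Prox1, the factor of lymphatic identity, fell by 2.39 and 2.04, and Nr2f2, a factor of venous identity, by 1.38 and 1.81. Of 9 lymphatic markers, 7 fell with each hairpin and 7 were higher on the control diet, including Reln (-2.15 and -2.30). In PLKO stroma no lymphatic marker was called for the diet, but effects ran from -0.85 (Prox1, adjusted p = 0.303) to 0.06 (Nrp2). Reln was at -0.83 there (adjusted p = 0.0546) and Mmrn1 at -0.82 (adjusted p = 0.0775). Of 11 tip, arterial and venous markers, 3 and 7 fell, including Selp, an adhesion molecule of venules and platelets (-1.11 and -1.21).

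Ligands of the member receptors moved less uniformly. Of 9 tested, 2 fell with shEGR2_40.9, 5 fell and 2 rose with shEGR2_38.9, and 4 were higher with the EGR2 hairpins than with PLKO on the control diet. Angpt2, the Tek ligand made by endothelial cells, had group means of 7.88 and 8.59 on the PA-rich diet with shEGR2_40.9 and shEGR2_38.9, against 9.78 and 10.73 on the control diet, and fell by 1.91 (adjusted p = 4.40e-07) and 2.15 (adjusted p = 1.78e-08). Pgf, a ligand of Flt1, fell by 0.77 and 1.55. Vegfa, the ligand of Kdr and Flt1, was at 0.01 (not called) with shEGR2_40.9 and rose by 0.42 with shEGR2_38.9 (adjusted p = 0.00558). In shGAL stroma its level fell by 0.47 with the diet (adjusted p = 0.0232). On the control diet Vegfa with the EGR2 hairpins differed from PLKO by -0.05 (adjusted p = 0.705). Angpt1, Vegfc and Bmp10 were below the filter.

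Of 12 co-receptors and receptor partners, 4 fell with shEGR2_40.9, 7 with shEGR2_38.9 and 6 were higher on the control diet. Flt4, the VEGF receptor of lymphatic vessels, fell by 2.18 and 1.64, and Ptprb, the phosphatase that restrains Tek, by 0.77 and 1.31. Nrp1, a VEGF co-receptor, was at -0.38 and -0.42 and was not called, though without the array that stood apart it was at -0.76 with shEGR2_38.9 (adjusted p = 0.00554). Junction partners that other cell types also make mostly showed no call: of 16, 3 fell with shEGR2_40.9, 2 fell and 3 rose with shEGR2_38.9, and 1 was higher on the control diet. That gene was Jam2, an endothelial junction molecule (1.06, adjusted p = 2.72e-06), while the catenin Ctnnb1, which links cadherins to the cell interior, differed by 0.00.

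**Figure D5:**
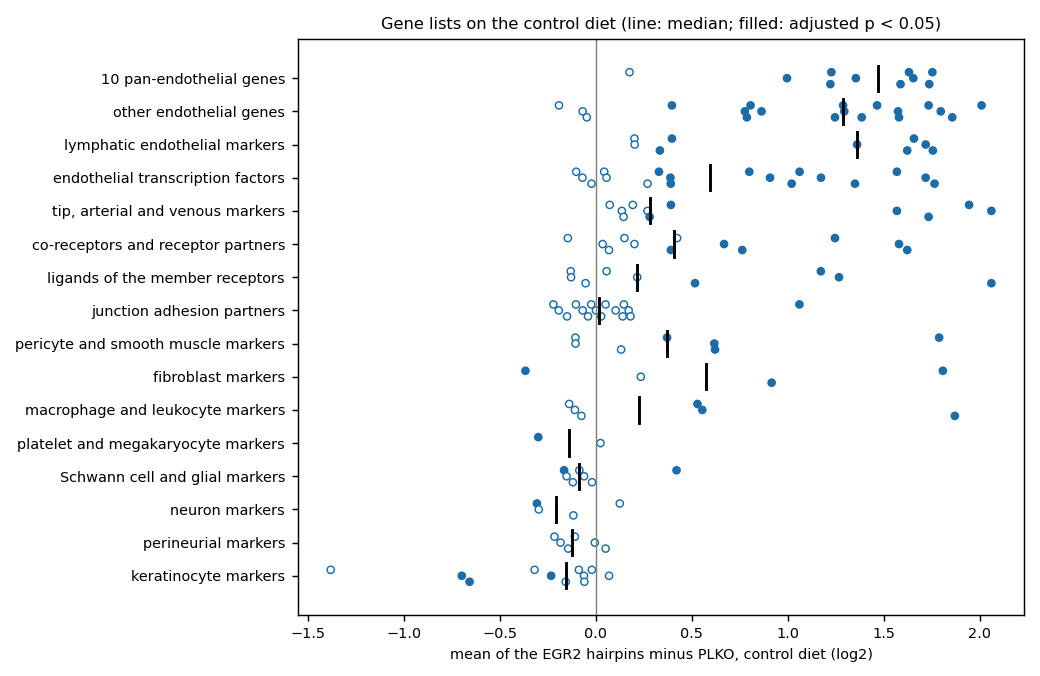
Mean of the EGR2 hairpins minus PLKO on the control diet (log2, x axis) for each tested gene of the 10 pan-endothelial genes and of 15 lists (rows), with a line at the median. Medians are 1.47 for the 10 genes, 1.29 for other endothelial genes and 1.36 for lymphatic markers, against 0.01 for junction adhesion partners and -0.06 over all genes.

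Markers of other cells moved with the 10 genes in part. Of 6 macrophage and leukocyte markers tested, of 12 listed, 2 fell with shEGR2_40.9, 3 with shEGR2_38.9 and 3 were higher on the control diet. Their mean log2 level ran from 6.86 to 7.08 over the PA-rich arrays of the EGR2 hairpins, against 7.30 to 7.70 over their control-diet arrays, and from 6.86 to 7.10 with shGAL and PLKO. Mrc1, which lymphatic endothelium also makes, carried the largest change (-2.35 and -2.26), while the pan-leukocyte gene Ptprc (highest group mean 4.59) and Adgre1, Itgam and C1qa were below the filter. In PLKO stroma Mrc1 was also called lower on the PA-rich diet (-0.70, adjusted p = 0.0341). Of 7 pericyte and smooth muscle markers, 0 fell with shEGR2_40.9, 3 fell with shEGR2_38.9 and 4 were higher on the control diet. Myh11, the smooth muscle myosin heavy chain, was at 0.23 (not called) with shEGR2_40.9 and fell by 2.83 with shEGR2_38.9 (adjusted p = 2.99e-06), more than any of the 10 genes. In PLKO stroma Acta2, of the same list, was called higher on the PA-rich diet (0.38, adjusted p = 0.0289). The list had means of 7.73 to 8.43 over the PA-rich arrays of the EGR2 hairpins, against 8.25 to 8.67 over their control-diet arrays, and 7.70 to 8.12 with shGAL and PLKO.

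Of 4 fibroblast markers tested, of 9 listed, 3 fell with shEGR2_40.9, 1 fell and 1 rose with shEGR2_38.9, and 2 were higher and 1 lower on the control diet. Their mean was 9.04 to 9.58 over the PA-rich arrays of the EGR2 hairpins, against 9.40 to 10.40 over their control-diet arrays, and 8.84 to 10.24 with shGAL and PLKO. Of 11 keratinocyte markers, 0 changed with shEGR2_40.9, 3 rose with shEGR2_38.9 and 3 were lower with the EGR2 hairpins than with PLKO on the control diet. Their mean was lowest, at 10.44 to 10.85, in shEGR2_38.9 stroma on the control diet, the group in which all of the 10 genes but Flt1 had their highest mean, against 11.01 to 11.25 on the PA-rich diet. The 10.44 is that of the array that stood apart, and its partners were at 10.79 and 10.85. The shares of all genes called higher with the diet, or called lower on the control diet, are not given. By the looser measure of arrays without overlap, 23.6% of all genes were higher on the PA-rich diet with shEGR2_38.9. By that measure 9.6% were lower with the EGR2 hairpins than with PLKO on the control diet. Pf4 and Ppbp, genes of platelets, which also carry Pecam1, were below the filter. Of 7 Schwann cell markers tested, of 14 listed, 1 rose with each EGR2 hairpin and 0 fell, with Ngfr rising by 0.43 with shEGR2_40.9 (adjusted p = 0.0102). On the control diet 1 was higher and 1, Erbb3, was lower with the EGR2 hairpins than with PLKO. The call for Erbb3 was lost without the array that stood apart. S100b, Gfap and Foxd3 were below the filter.

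The lists were also counted without the array that stood apart, an alternative chosen after the data were seen. Of the further endothelial genes, 16 then fell with the diet with shEGR2_38.9 and 16 were higher on the control diet with the EGR2 hairpins than with PLKO, and of the endothelial transcription factors 14 and 13. Of the lymphatic markers 8 fell and 9 were higher, and of the tip, arterial and venous markers 8 fell and 10, against 6 with it, were higher. Of the co-receptors and partners, 9 fell and 8 were higher. For the ligands 4 fell and 1 rose, with Gdf2 and Tgfb2 lost, and 4 were higher. Of the junction partners, 3 fell, 1 rose and 4, against 1, were higher, with Cldn1, Jam3 and Cgnl1 gained. Pericyte and smooth muscle markers gained 1 fall, Rgs5 (4 in all), keratinocyte markers lost 1 rise, Krt10 (2 in all), and counts of fibroblast and of macrophage and leukocyte markers were as with it. The array's mean was below those of both partners in 13 of 15 lists and above them for macrophage and leukocyte and for Schwann cell markers. The part of these other cells in the changes of the 10 genes was not tested.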

How the data were processed

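RNA of the neural stromal fraction was isolated with magnetic beads, amplified and biotin-labelled for Affymetrix mouse arrays, per the labels' protocols. Per the submitters' processing notes, the authors used RMA and affy (versions not given) to make the deposited log2 values. RMA scales all arrays to 1 distribution, so values are relative within an array set, and they have no count depth: the number of arrays limits the precision. The members and all gene lists were chosen with earlier results of these data known.

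Of 45141 probe sets, 28898 had 1 symbol, 551 several and 15692 none; only the first were used. The probe set with the highest mean stood for a gene, and genes whose mean over all arrays fell short of 6.27, the 40th percentile over probe sets, were left out, which kept 11844 of 17097. limma 3.58.1 in R 4.3.3 fitted 8 group means over 24 arrays (16 residual degrees of freedom), with two-sided moderated tests and Benjamini-Hochberg adjustment over all 11844 genes within a comparison, threshold 0.05. EGR2 hairpins were averaged in the contrasts that name both. The fit was tested on simulated data. Probe sets of 1 gene were also tested singly.

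Named were all members, the 10 genes most like their mean profile, and some genes of each list past the threshold in a diet comparison of an EGR2 hairpin. The plan was up to 4 genes a list with the largest change, but those named were not always the largest. Unchanged genes and ligands given beside them were chosen after their values were seen. Residuals of same-numbered arrays on the 2 diets correlated by -0.03 to 0.24, with 7 of 12 pairs above 0.1, so the numbers do not pair the samples by that check. Alternatives were scan batch or hairpin and number as a block, no filter, every probe set, the mean of probe sets, only the groups compared, repeated quantile normalization, array weights, and leaving out each array.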

Additional observations from a re-analysis of the deposited data

Results flagged for a closer look

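The diet effect (PA-rich minus control) differed between hairpins by a direct limma test for the following genes, with p adjusted over all 11844 genes. The mean effect of the EGR2 hairpins minus that of PLKO was -1.36 for Cdh5 (adjusted p = 8.87e-05), -1.40 for Pecam1, -1.05 for Cldn5, -1.07 for Esam, -1.27 for Tie1, -1.18 for Tek, -1.04 for Kdr, -0.85 for Eng and -1.11 for Emcn, on the log2 scale. For Kdr the adjusted p was 0.0205, the highest of these.

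The mean effect of the EGR2 hairpins minus that of shGAL was -1.65 for Cdh5, -1.45 for Pecam1, -1.26 for Cldn5, -0.94 for Esam, -2.05 for Tie1, -1.41 for Tek, -1.502 for Kdr, -0.75 for Eng and -1.47 for Emcn. These share the EGR2 hairpin arrays with the comparison against PLKO. For Flt1, the effect with shEGR2_38.9 exceeded that with shEGR2_40.9 by 0.97 (adjusted p = 0.0173), a difference that rests on probe set 1451756_PM_at and 1454037_PM_a_at (0.84) and is -0.44 in 1419300_PM_at.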

How the results depend on the processing

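Over 32 alternatives, 24 of which left out 1 array, 4929 of 5040 values of single genes kept their direction and their side of the threshold, 55 lost the call, 55 gained it and 1 reversed. The reversal was the diet effect on Flt1 with shEGR2_38.9, which was -0.93 when every probe set was tested, against 0.45. In that setting the probe set with the lowest p in a comparison stands for its gene, here 1419300_PM_at. This choice favours calls for genes with several probe sets, such as Flt1. The number of genes called for the diet was 7 to 10 with shEGR2_40.9 and 9 to 10 with shEGR2_38.9 when 1 array was left out, and 0 with shGAL and PLKO. For the EGR2 hairpins against PLKO on the control diet it was 9 throughout those fits.

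With scan batch as the replicate block, the diet counts stayed at 9, 9, 0 and 0 and that of the EGR2 minus PLKO diet effect at 9. The block moved the difference in diet effect between shEGR2_38.9 and shEGR2_40.9 to 3 genes called, against 1, their difference on the control diet to 3, against 5, their difference on the PA-rich diet to 1, against 2, and EGR2 minus shGAL on the PA-rich diet to 2, against 1. The cause was not tested.

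Flt1 brought counts of 9 to 10 for the diet with shEGR2_40.9 (every probe set, the mean of probe sets, array weights), the diet effects of EGR2 minus shGAL and the control-diet difference of EGR2 minus PLKO (every probe set and the mean of probe sets), and the diet with shEGR2_38.9 and the diet effects of EGR2 minus PLKO (every probe set). Counts that moved by over 1.5 times were these. For the diet effect of shGAL minus PLKO, array weights gave 1 and leaving out 1 array 0 to 1, against 0. For that of shEGR2_38.9 minus shEGR2_40.9, repeated quantile normalization gave 2, array weights 4 and leaving out 1 array 0 to 4. For EGR2 minus PLKO on the PA-rich diet, fitting only the groups compared gave 2 and array weights 2, against 0, Tie1 and Tek in both. For shGAL minus PLKO on the control diet, array weights gave 3 and leaving out 1 array 1 to 3, against 1. For EGR2 minus shGAL on the PA-rich diet, only the groups compared gave 3, array weights 2 and leaving out 1 array 1 to 2. For shEGR2_38.9 minus shEGR2_40.9 on the control diet, only the groups compared gave 3 and leaving out 1 array 2 to 5. On the PA-rich diet that comparison gave 1 with no filter, 1 with the mean of probe sets, 5 with only the groups compared, 4 with array weights and 1 to 2 when 1 array was left out. The cause was not tested.

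Groups of 3 arrays limit the precision. Dim genes such as Vegfc and Angpt1 were not tested.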

Other observations

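Of 4 neuron markers tested, 0 changed with the diet with shEGR2_40.9, 1, Map2, rose with shEGR2_38.9 (0.63, adjusted p = 0.00146), 0 changed with shGAL and 1, the neuronal tubulin Tubb3, fell with PLKO (-0.75, adjusted p = 5.40e-04). Tubb3 was also lower with the EGR2 hairpins than with PLKO on the control diet (-0.31, adjusted p = 0.0144). Of 6 perineurial markers, 0 changed with shEGR2_40.9 and 1, Moxd1, rose with shEGR2_38.9 (0.57, adjusted p = 0.0244). The share of all genes called higher with shEGR2_38.9 is not given, but 23.6% had every PA-rich array above every control-diet array. On the control-diet array of shEGR2_38.9 that stood apart, the mean of the perineurial markers was 9.19, against 9.92 and 9.99 on its partners, and that of the neuron markers 7.54, against 7.89 and 7.95. Without that array Map2 was still called (0.40, adjusted p = 0.00722) and Moxd1 was not (0.19, adjusted p = 0.129). Of 2 platelet and megakaryocyte markers above the filter, 0 changed with the diet with either EGR2 hairpin, and 1, Itga2b, was lower with the EGR2 hairpins than with PLKO on the control diet.

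Within groups, the 36 pairs of the 10 genes without Flt1 had correlations of 0.212 to 0.869 between their deviations from group means over the 24 arrays, which share libraries and normalization.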
